A study of Mus musculus with 15 samples.

Results

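The comparison described here asks what the retinoid X receptor (RXR) agonist CD3254 added in cells that already received AM580, an agonist selective for the retinoic acid receptor RARα. It sets the 3 RNA sequencing libraries of cells given AM580 and CD3254 together (the joint treatment) against the 3 libraries of cells given AM580 alone, chosen by their treatment label, which makes 6 of the 15 libraries of the series. All genes of the count table were compared, and 16736 of 43432 gene identifiers had enough reads to be tested. When CD3254 was added to AM580, transcripts of Cyp26b1, whose product is an enzyme that breaks down retinoic acid, rose 19-fold, and those of Angptl4, a secreted inhibitor of lipoprotein lipase, rose 6.16-fold. edgeR called no gene lower, and DESeq2 called 3. Sterol transporters and fatty acid enzymes, among them Abca1, Abcg1, Acsl3 and Cpt1a, had higher fitted levels with CD3254 that did not pass the edgeR test across all genes, though DESeq2 with the same terms called these 4.

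The cells were 266-6, an established line that comes from a mouse pancreatic acinar tumour, so all libraries stand for 1 line and not for acinar tissue. Every group spent 24 h in stripped medium before 24 h with ligand or with the vehicle DMSO, at concentrations that the labels do not give. The other groups, also of 3 libraries each, received DMSO, CD3254 alone or 9-cis retinoic acid, and the series is labelled a study of allostery in the liganded RARα:RXR pair. Nothing in the labels says that replicates are separate cultures, and p-values therefore reflect only the variation among these libraries, which may be technical.

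RARα binds DNA together with an RXR, and the pair acts as a switch that takes on coactivators when an RAR agonist is bound. In this pair an RXR agonist alone is known to do little, while it can add to the response once the RAR side is occupied. RXRs also pair with the liver X receptors (LXR, sensors of oxysterols) and the peroxisome proliferator-activated receptors (PPAR, sensors of fatty acids), and those pairs are known to respond to an RXR agonist without a ligand of the partner. Targets of the RAR pair include genes that clear or store retinoids, targets of the LXR pair export cholesterol and make fatty acids, and targets of the PPAR pair burn and release fatty acids.

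The promoter of Cyp26b1 is shown because that gene led the comparison, and those of Abca1 and Acsl3 because these sterol and fatty acid genes are targets of the LXR pair with higher fitted levels. The windows are the bases just before the gene's start in the RefSeq table of GRCm38.p6, 250 bases for Abca1 at chr4:53159896-53160145 on the minus strand and for Acsl3 at chr1:78657575-78657824 on the plus strand. For Cyp26b1 the window is 152 bases at chr6:84593909-84594060 on the minus strand, since the other bases of its table entry lie in the gene's first exon in GENCODE M21. Capitals mark the half-sites AGGTCA or AGTTCA or GGGTCA or GGTTCA, which are some of the forms that receptors of this family bind. Only exact matches to these were searched for, on both strands, and other forms were not. On the other strand the matches read as their reverse complement.
Cyp26b1: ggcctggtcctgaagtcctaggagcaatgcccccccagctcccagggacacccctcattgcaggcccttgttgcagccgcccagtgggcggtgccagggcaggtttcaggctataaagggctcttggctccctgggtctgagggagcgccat
Abca1: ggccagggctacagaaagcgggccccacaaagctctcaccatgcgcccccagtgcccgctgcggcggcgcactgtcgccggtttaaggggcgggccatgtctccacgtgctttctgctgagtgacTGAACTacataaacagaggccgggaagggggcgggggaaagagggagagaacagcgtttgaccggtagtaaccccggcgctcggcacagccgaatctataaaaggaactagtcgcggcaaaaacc
Acsl3: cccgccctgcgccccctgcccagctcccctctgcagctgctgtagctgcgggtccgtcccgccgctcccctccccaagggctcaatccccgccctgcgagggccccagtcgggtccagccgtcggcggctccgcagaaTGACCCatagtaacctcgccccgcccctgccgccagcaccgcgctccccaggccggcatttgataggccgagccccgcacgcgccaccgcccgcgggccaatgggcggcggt
Rarb direct repeat: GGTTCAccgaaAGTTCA
The Cyp26b1 window held no exact match to a half-site, and the Abca1 and Acsl3 windows held 1 each, both on the other strand. The Rarb site, at chr14:16575513-16575529 on the minus strand, lies just before the RefSeq start of the gene for RARβ and in exon 1 of 2 GENCODE transcripts of that gene. It is a direct repeat of 2 half-sites with 5 bases between them and is shown as the arrangement that RAR pairs favour. Over all 32851 RefSeq windows of 250 bases, 38.6% held a half-site and 0.0883% a direct repeat with 5 bases between. These exact matches describe letters only, and they do not show that a window lacks half-sites or repeats with other letters. Of the 49 genes named by rule, 39 had a window. By exact match, 18 of those held a half-site and 1, Rarb, held a direct repeat with 1, 2, 4 or 5 bases between.

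Each of the 6 libraries held from 28501170 to 44972993 reads in genes, and reads without a gene made up 19.1% to 28.5%. The libraries did not part by treatment. The first principal component, which carried 48.3% of the variance, parted 5 libraries from the other 10, and AM580 replicate 1 and joint replicate 2 were both among the 5. Summed over a list of low-oxygen genes, the level in CPM (read counts scaled to a common library total) was 6990 to 8180 in the 5 libraries of this smaller set and 941 to 1210 in the 10 of the larger set. AM580 replicate 1 stood at 7780 CPM and joint replicate 2 at 8180 CPM, so the state was in 1 library on each side, but not in equal measure throughout: their summed glycolysis genes were at 27400 and 18300 CPM, and their acinar enzymes at 14500 and 8820 CPM. All tests therefore carried the library set as a term, and libraries are compared below within their set, joint replicates 1 and 3 with AM580 replicates 2 and 3, and joint replicate 2 with AM580 replicate 1.

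**Figure D1:**
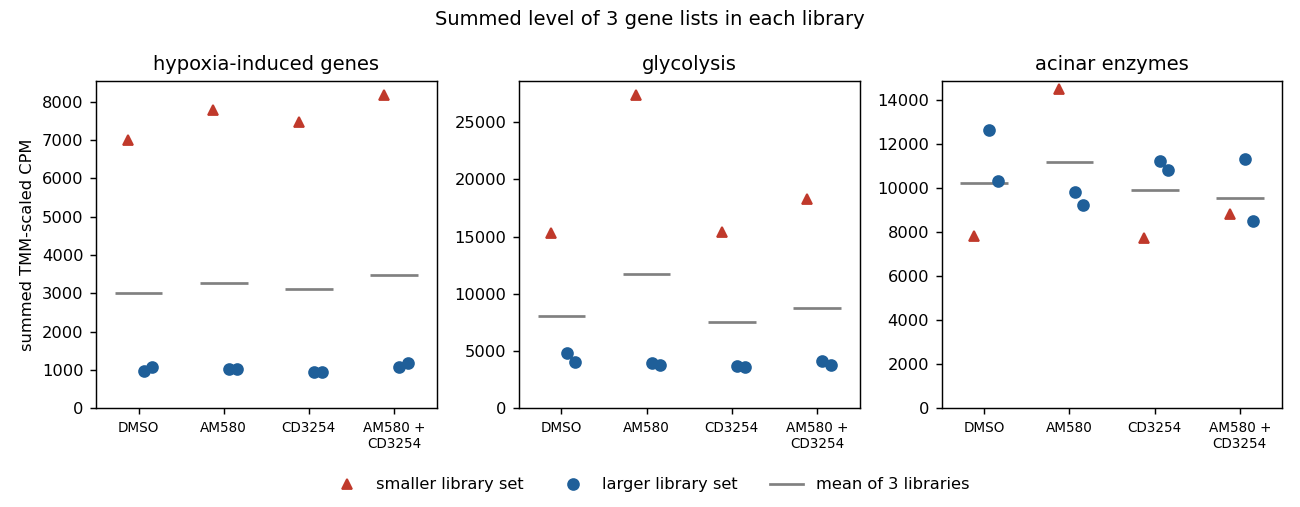
Summed level of 3 gene lists in each library of 4 treatment groups, in TMM-scaled CPM on a linear axis from 0; triangles are libraries of the smaller set, circles those of the larger set and lines the mean of 3 libraries. AM580 replicate 1 and joint replicate 2 stand at 7780 and 8180 CPM for low-oxygen genes, while the other libraries of both groups lie between 1010 and 1190, and AM580 replicate 1 is the highest library for glycolysis and acinar enzymes.

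Transcripts of many acinar enzymes were present in the 6 libraries, though not of all. Ctrb1, which encodes chymotrypsinogen, was at 3840 to 7200 CPM and Cela1, an elastase, at 1380 to 3280 CPM. Of 30 acinar enzymes, 25 had enough reads to be tested. The others, Amy2a5, Amy2b, Cpb1, Ctrc and Reg2, had at most 37, 5, 7, 9 and 4 reads in any of the 6 libraries. The islet hormone genes Ins1 and Sst and the T cell gene Cd3e were at 0 counts in all 6 libraries, and the leukocyte gene Ptprc reached at most 0.107 CPM. The macrophage gene Cd68 was at 23.9 CPM in AM580 replicate 1, at 10.6 CPM in joint replicate 2 and at 4.69 to 5.67 CPM in the other libraries. The macrophage genes Csf1r, Adgre1 and Itgam did not go with it, with at most 4, 1 and 2 reads in any of the 6 libraries. The part of these marker differences in the results was not tested. In bulk samples fewer cells of a type and less RNA per cell cannot be told apart.

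Across all 16736 genes tested, 2 were called higher with the joint treatment than with AM580 alone (0.0120% of genes), and 0 were called lower, by edgeR's quasi-likelihood test with Benjamini-Hochberg adjustment at 0.05 (written FDR from here). At an unadjusted p under 0.05, 412 genes were higher (2.46%) and 528 lower (3.15%), 5.62% in all. Direction was even over the table, with 48.6% of genes above 0 and a median log2 change of -0.01. With DESeq2 and the same library set term, 10 genes were called higher and 3 lower. The 10 were Cyp26b1, Angptl4, Abca1, Abcg1, Acsl3, Cpt1a, Fmo5, Rnf145, Gramd1b and Dnah6, and the 3 were Penk, Tmem184a and the predicted gene Gm13292. Without the library set term edgeR called 0 genes in either direction, with 229 genes at an unadjusted p under 0.05, and DESeq2 called Cyp26b1 alone.

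**Figure D2:**
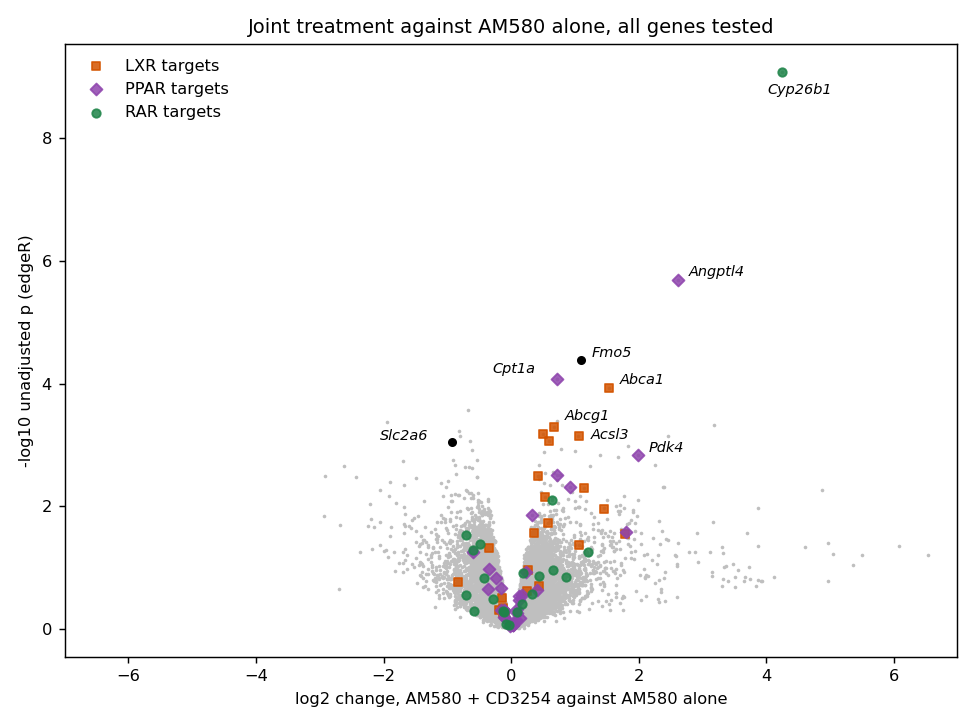
Each of the 16736 genes tested by its log2 change when CD3254 was added to AM580 (x axis) and -log10 of its unadjusted p from edgeR (y axis), with members of 3 target lists in colour and labelled genes of no list in black. Cyp26b1 at 4.25 and Angptl4 at 2.62 stand apart at the upper right, and the coloured LXR and PPAR points with small p lie on the higher side.

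Cyp26b1 (ENSMUSG00000063415, chr6:84571414-84593908 on the minus strand) encodes a cytochrome P450 that oxidises retinoic acid, and it is a known target of RAR pairs. Its read counts were 235, 98 and 114 in AM580 replicates 1 to 3 and 1842, 3534 and 1422 in joint replicates 1 to 3. Scaled to library size, the level was 6.90, 2.16 and 2.45 CPM with AM580 and 53.3, 127 and 35.5 CPM with the joint treatment. Every joint library lay above every AM580 library, as for 453 of all genes tested (2.71%, with 2.80% in the opposite direction), and the smaller-set library was the highest of each group. The fitted log2 change was 4.25 ± 0.29 (SE; interval at 95% from 3.62 to 4.87), with FDR = 1.392e-05 by edgeR. The set-matched differences of log2 CPM were 4.21 in the larger set and 4.19 in the pair of the smaller set. Without the library set term the log2 change was 4.23 ± 0.87 with an edgeR FDR of 1.00, and the DESeq2 adjusted p was 0.000595.

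The other groups place this level. Cyp26b1 was at 0.659, 0.211 and 0.0503 CPM in DMSO replicates 1 to 3, where it rested on 26, 7 and 2 reads, and at 4.67, 1.43 and 1.13 CPM with CD3254 alone. Each agonist alone raised it against DMSO, AM580 by 3.73 ± 0.36 on the log2 scale (edgeR FDR = 0.000594) and CD3254 by 2.99 ± 0.37 (edgeR FDR = 0.0105), where 0.0299% and 0.0239% of all genes were called higher. The joint treatment raised it by 7.98 ± 0.38 against DMSO (edgeR FDR = 9.69e-08), beside 0.125% of all genes called. With 9-cis retinoic acid, which binds both receptor families, the libraries held 16.8, 3.58 and 7.36 CPM, all below the joint treatment library of the same set. Within each set the order was DMSO, CD3254, AM580, 9-cis retinoic acid and joint treatment. Over whole groups DMSO lay below and the joint treatment above all others without overlap, while the ranges of CD3254 and AM580 overlapped, as did those of AM580 and 9-cis retinoic acid.

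The interaction asks whether CD3254 changed a gene more with AM580 than without it, as the log2 change of joint against AM580 minus that of CD3254 against DMSO. For Cyp26b1 it was 1.26 ± 0.48 (interval from 0.23 to 2.30), with an unadjusted edgeR p of 0.0205 and FDR = 0.961. No gene passed the test of the interaction, by edgeR or by DESeq2, and 332 genes (1.98%) had an unadjusted edgeR p under 0.05, with 49.6% of all interactions above 0. The excess for Cyp26b1 was thus not shown to differ from 0 across the table. It was 0.86 without DMSO replicate 1 and 1.59 without DMSO replicate 3, the libraries on which its baseline rests.

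Angptl4 (ENSMUSG00000002289, chr17:33773750-33781830 on the minus strand) encodes a secreted protein that blocks lipoprotein lipase, and it is a known target of PPAR pairs and of low oxygen in many cells. Its level was 1.17, 12.2 and 9.72 CPM in AM580 replicates 1 to 3 and 57.1, 11.8 and 57.1 CPM in joint replicates 1 to 3. The groups overlapped as a whole, since joint replicate 2 was slightly below AM580 replicate 2, but within each library set the joint libraries were far above. The log2 change was 2.62 ± 0.34 (interval from 1.90 to 3.35; FDR = 0.0172 by edgeR). The smaller-set library was the lowest for Angptl4 in each of the 5 groups, as with 1.01 CPM against 14.9 and 10.1 CPM in DMSO.

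CD3254 alone gave nearly the same levels of Angptl4 as the joint treatment, 18.5, 58.5 and 57.3 CPM. Against DMSO the change with CD3254 was 2.80 ± 0.34 (edgeR FDR = 0.0105), while AM580 alone gave -0.11 ± 0.33. The interaction was -0.18 ± 0.45 with an interval from -1.15 to 0.80, which spans sizeable differences in either direction. The call was lost when any 1 of the 6 libraries compared was left out, with edgeR FDR from 0.0744 without joint replicate 3 to 0.245 without AM580 replicate 3, and also without DMSO replicate 3 or without the filter on low counts. The log2 change stayed between 2.42 and 2.84 over those 6 fits. For Cyp26b1 the same 6 fits gave 4.05 to 4.38 with edgeR FDR of at most 0.00045.

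**Figure D3:**
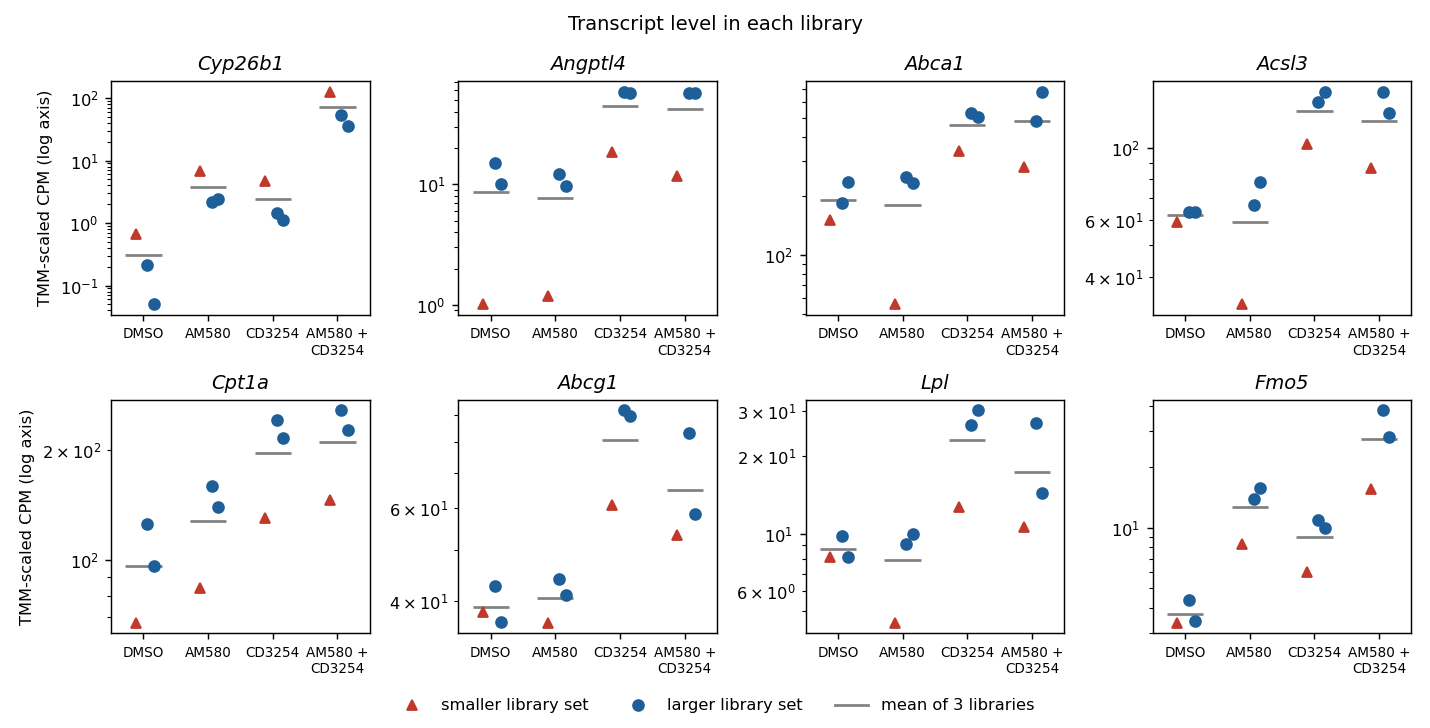
Level of 8 genes in each library of 4 treatment groups, in TMM-scaled CPM on log axes; triangles are libraries of the smaller set, circles those of the larger set and lines the mean of 3 libraries. Cyp26b1 is highest with both agonists (35.5 to 127 CPM), whereas Angptl4, Abca1, Acsl3, Abcg1 and Lpl reach like levels with CD3254 alone and with both.

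Among the gene lists, that of LXR targets had the largest share of members on the higher side at an unadjusted p under 0.05. All 24 were tested, 16 had a log2 change above 0, and the median was 0.43, beside -0.01 over all genes tested. At an unadjusted p under 0.05, 13 were higher (54.2%, beside 2.46% of all genes) and 1 lower. The set-matched libraries did not overlap for 12 members in the higher direction, beside 8.53% of all genes, and for 1 in the lower, beside 10.3%. None of the 24 passed the edgeR threshold of 0.05, so the list is described and no member is counted as changed. The median was 0.41 in the larger set and 0.44 in the smaller, but the 13 became 8 in the 10-library set alone and 6 without the library set term.

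Abca1 (ENSMUSG00000015243, chr4:53030787-53159895), which exports cholesterol to lipid-poor apolipoprotein, was the member with the smallest p. Its level was 55.9, 249 and 234 CPM with AM580 and 480.2, 279 and 681 CPM with the joint treatment. The joint libraries were all above the AM580 libraries, though joint replicate 2 was above AM580 replicate 2 by little. The log2 change was 1.53 ± 0.29 (edgeR FDR = 0.392; DESeq2 adjusted p = 0.000683). With CD3254 alone Abca1 was at 338, 531 and 506 CPM, a change of 1.25 ± 0.29 against DMSO, and the interaction was 0.28 ± 0.40. AM580 replicate 1 was low for Abca1 also against the smaller-set library of DMSO, at 151 CPM, so the difference in that pair, 2.32, was larger than the 1.25 in the larger set.

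Acsl3 (ENSMUSG00000032883, chr1:78657825-78707743), a synthetase that activates long-chain fatty acids, was at 33.0, 66.5 and 78.3 CPM with AM580 and at 149, 86.6 and 128 CPM with the joint treatment. The groups did not overlap, and the log2 change was 1.06 ± 0.24 (edgeR FDR = 0.608; DESeq2 adjusted p = 0.0466). CD3254 alone gave 103, 138 and 148 CPM, a change of 1.04 ± 0.24, and the interaction was 0.01 ± 0.34 (interval from -0.72 to 0.74).

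Abcg1, which passes cholesterol to high-density lipoprotein, was at 36.3, 44.0 and 41.1 CPM with AM580 and at 83.2, 53.2 and 58.5 CPM with the joint treatment. All joint libraries were above all AM580 libraries, and the log2 change was 0.67 ± 0.15 (edgeR FDR = 0.608; DESeq2 adjusted p = 0.0466). CD3254 alone raised Abcg1 against DMSO by 1.03 ± 0.15 (edgeR FDR = 0.0382), to 60.9, 92.0 and 89.8 CPM. The half-transporters Abcg5 and Abcg8, which pair to expel sterols, had log2 changes of 1.46 ± 0.50 and 1.78 ± 0.72. Both lay at low levels, at most 2.95 CPM for Abcg5 and 0.811 CPM for Abcg8 in the joint libraries, and their genes overlap head to head on chromosome 17, so without a known strand setting their reads may not be told apart.

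Several lipid enzymes of the list also lay on the higher side. Lpl, lipoprotein lipase itself, was at 4.52, 9.16 and 10.0 CPM with AM580 and 26.8, 10.6 and 14.4 CPM with the joint treatment, with a log2 change of 1.14 ± 0.34. Lpcat3, which remodels phospholipids, had 0.59 ± 0.14, and Rnf145, a ubiquitin ligase of the sterol sensing system, 0.50 ± 0.12 (DESeq2 adjusted p = 0.00771). Acaca, Scd2 and Elovl5, which start, desaturate and elongate fatty acids, had 0.58 ± 0.22, 0.53 ± 0.17 and 0.43 ± 0.12. Elovl5 varied little between libraries, at 108, 111 and 112 CPM with AM580 against 147, 154 and 144 CPM with the joint treatment. All of these had edgeR FDR = 0.608.

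Other members of the LXR list lay near or below 0. Fasn, the fatty acid synthase, had a log2 change of -0.12, Srebf1, the gene of the lipogenic factor SREBP-1, 0.25 ± 0.20, and Apoe -0.20. Nr1h3, the gene of LXRα, was at 11.4, 17.0 and 18.1 CPM with AM580 and 16.6, 6.88 and 15.2 CPM with the joint treatment, a log2 change of -0.35 ± 0.16, and it was the 1 member below 0 at an unadjusted p under 0.05. Without AM580 replicate 1 the value of Nr1h3 was -0.14. Over the 20 tested genes of fatty acid synthesis as a whole the median was 0.04, and over the 25 of cholesterol synthesis and uptake it was -0.11, with 18 members below 0. Of those 25, only Fdft1, squalene synthase, had an unadjusted p under 0.05, with a log2 change of -0.46 ± 0.19. Without AM580 replicate 1, 15 of these 25 lay above 0, the median was 0.029 and Fdft1 had -0.17, while without joint replicate 3 the median was -0.021.

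Of 35 PPAR targets 30 were tested, and 19 of those lay above 0 with a median of 0.08. Angptl4 was the 1 member called higher by edgeR, beside 0.0120% of all genes. At an unadjusted p under 0.05, 7 members were higher (23.3%, beside 2.46% of all genes) and 0 were lower, beside 3.15%. The 7 differed in size from most of the list. Pdk4, a kinase that holds back pyruvate oxidation, was at 0.117, 0.287 and 0.258 CPM with AM580 and 1.16, 0.896 and 0.649 CPM with the joint treatment, without overlap and with a log2 change of 1.99 ± 0.50 (edgeR FDR = 0.608). These Pdk4 levels rest on 4 to 13 reads with AM580 and 25 to 40 reads with the joint treatment.

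Cpt1a, the gate for fatty acids into mitochondria, was at 84.1, 159 and 139.6 CPM with AM580 and 256, 146 and 226 CPM with the joint treatment. The groups overlapped through joint replicate 2, but not within library sets, where the differences were 0.69 and 0.79. The log2 change was 0.72 ± 0.13 (edgeR FDR = 0.349; DESeq2 adjusted p = 0.000523). CD3254 alone raised Cpt1a against DMSO by 1.01 ± 0.13 (edgeR FDR = 0.0146).

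The thioesterases Acot1 and Acot2, which release free fatty acids from coenzyme A, had 0.92 ± 0.27 and 0.73 ± 0.20, but these neighbouring genes are near copies that may share reads. Acadl, a dehydrogenase of fatty acid oxidation, had 0.33 ± 0.12. Other enzymes of fatty acid oxidation had values near 0, with Hadha at 0.02 and Acadvl at -0.12, and the lipid droplet gene Plin2 was at -0.09.

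Targets of RAR pairs lay on both sides of 0. Of 28 members 21 were tested, 10 lay above 0 and the median was -0.03. The median of set-matched differences had the other sign, at 0.05 in the larger set and 0.06 in the smaller. Over the fits tried for this list the median ran from -0.10 to 0.12. At an unadjusted p under 0.05, 2 were higher and 2 lower (9.52% each, beside 2.46% and 3.15% of all genes). The set-matched libraries did not overlap for 5 in each direction (23.8% each, beside 8.53% and 10.3%). Without AM580 replicate 1, 14 of the 21 lay above 0 with a median of 0.12, and the median was also above 0 without joint replicate 1 (0.015) or joint replicate 3 (0.064). Cyp26b1, at 4.25, was the 1 member called. Its sister genes Cyp26a1 and Cyp26c1 were too low to be tested, with at most 6 and 4 reads in any of the 6 libraries.

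Dhrs3, which turns retinaldehyde back to retinol, was at 40.7, 14.6 and 14.7 CPM with AM580 and 26.8, 54.1 and 23.5 CPM with the joint treatment. Against DMSO it rose with AM580 by 2.49 ± 0.23 (edgeR FDR = 0.000537), and the value for CD3254 on top of AM580 was 0.65 ± 0.21 (edgeR FDR = 0.608). Rarb, the gene of RARβ with the direct repeat shown above, was at 1.29, 2.29 and 2.30 CPM with AM580 and 3.71, 1.97 and 3.62 CPM with the joint treatment. The groups overlapped, the log2 change was 0.66 ± 0.38, and its interval from -0.17 to 1.48 includes 0. An antisense transcript overlaps the first exon of a Rarb transcript in the annotation, which bears on its reads where strand was not used.

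Other RAR targets had values on either side. Tgm2, a transglutaminase, had 0.86 ± 0.55, Hoxa4 -0.49 ± 0.22 and Gprc5a -0.60 ± 0.28, none of them called. Among 22 tested genes of retinoid metabolism 8 lay above 0, and beside Cyp26b1 and Dhrs3 those with an unadjusted p under 0.05 included Rdh10 at 0.43 ± 0.15 and Adh1 at 0.38 ± 0.16.

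**Figure D4:**
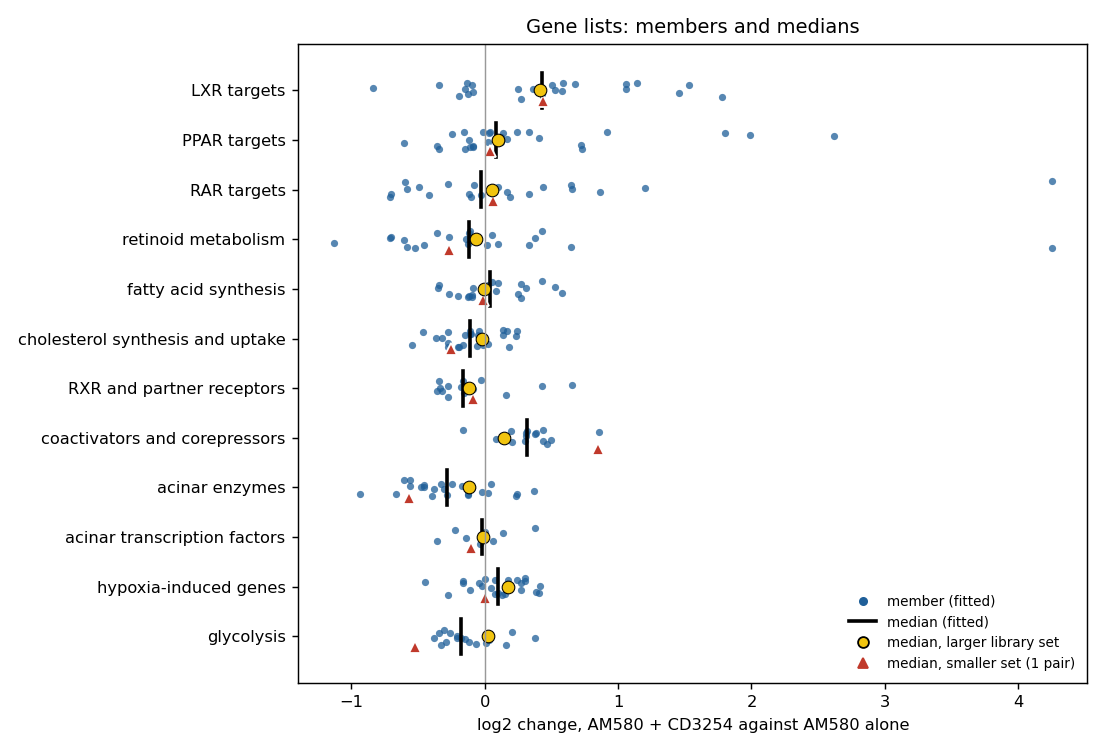
Members (small circles) and medians (bars) of 12 gene lists by log2 change when CD3254 was added to AM580, with the median of set-matched differences in the larger library set (large circles) and in the 1 pair of the smaller set (triangles). LXR targets have their median at 0.43, with 0.41 and 0.44 in the 2 sets, while the medians of coactivators and of acinar enzymes differ between the sets.

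Of the RAR and RXR genes tested, all but Rarb, at 0.66 as given above, had values near 0. Rara had a log2 change of -0.10 ± 0.17, Rarg -0.12 ± 0.18, Rxra -0.16 ± 0.16 and Rxrb -0.18 ± 0.16, each with an interval that includes 0, and without AM580 replicate 1 the value was above 0 for Rara, Rarg and Rxrb. Rxra was at 72.1, 95.4 and 82.0 CPM with AM580 and 75.5, 68.0 and 79.2 CPM with the joint treatment, and Rara at 35.6, 14.6 and 14.0 CPM and 13.9, 33.5 and 12.6 CPM. The high library of each group for Rara was that of the smaller set. Rxrg had at most 5 reads and was not tested. Of 16 tested RXRs and partner receptors, 13 lay below 0, with a median of -0.16. The set-matched libraries did not overlap for 7 in the lower direction (43.8%, beside 10.3% of all genes) and for 1 in the higher (6.25%, beside 8.53%). Without AM580 replicate 1, 8 of the 16 lay above 0 with a median of -0.011, and without joint replicate 1 the median was -0.090. Among the partners, Ppara had -0.28 ± 0.26, Ppard -0.03 ± 0.19 and Nr1h2, the gene of LXRβ, -0.32 ± 0.21.

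Coactivators and corepressors had 14 of 15 members above 0, with a median of 0.32, yet 0 had an unadjusted p under 0.05. Without AM580 replicate 1 the median was 0.13, and without joint replicate 3 it was 0.21. With all libraries the median was 0.15 in the larger set and 0.85 in the pair of the smaller set, and the summed level was 1060 CPM in AM580 replicate 1 against 1670 to 2410 CPM in the other 5 libraries. Acinar enzymes stood apart in the same library. Of 25 tested 20 lay below 0 with a median of -0.29, which was -0.12 in the larger set and -0.57 in the smaller, and AM580 replicate 1 held the highest sum of the 6. Without that library 15 of the 25 acinar enzymes lay above 0 with a median of 0.051, and without joint replicate 3 the median was -0.077. Cela2a, an elastase, was the 1 acinar enzyme with an unadjusted p under 0.05, at -0.66 ± 0.30, and it had -0.19 without AM580 replicate 1. Among acinar transcription factors Ptf1a, the factor that drives the acinar enzyme genes, was at 27.9, 71.2 and 70.2 CPM with AM580 and 65.7, 19.6 and 49.8 CPM with the joint treatment, a log2 change of -0.36 ± 0.15.

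Outside the lists, the largest fitted increases with an unadjusted p under 0.01, at least 1 CPM in the higher group and no overlap in set-matched libraries were in Tenm1, Itga2, Zim1, Kcnj2, Serpina6 and Fmo5. A total of 44 genes met this rule on the higher side and 45 on the lower, and 12 of the 44 were LXR or PPAR targets, which together made up 54 of the genes tested. Tenm1, Itga2, Zim1, Kcnj2, Serpina6 and Fmo5 did not pass the edgeR test in this comparison.

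Fmo5, a flavin monooxygenase, came closest, with an edgeR FDR of 0.234. It was at 8.31, 13.8 and 15.8 CPM with AM580 and 38.2, 15.6 and 28.3 CPM with the joint treatment, and at 3.37, 4.38 and 3.42 CPM with DMSO. Within sets the joint libraries were above, and the log2 change was 1.09 ± 0.19 (DESeq2 adjusted p = 0.000121). AM580 alone raised Fmo5 by 1.71 ± 0.19 (edgeR FDR = 0.00277) and the joint treatment by 2.80 ± 0.20 (edgeR FDR = 1.2e-05), both against DMSO.

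Tenm1, a teneurin of the cell surface, was at 0.851, 0.640 and 0.623 CPM with AM580 and 1.30, 3.04 and 5.64 CPM with the joint treatment, a log2 change of 2.26 ± 0.60. Itga2, the collagen-binding integrin subunit α2, was at 14.1, 10.8 and 10.4 CPM with AM580 and 16.1, 40.7 and 43.4 CPM with the joint treatment, a change of 1.5 ± 0.48. In both genes every joint library was above every AM580 library and joint replicate 1 was the lowest of its group. Serpina6, which encodes the corticosteroid carrier of blood, had a fitted ratio of 2.26, Zim1, an imprinted zinc finger gene, had a log2 change of 1.39 ± 0.35, and Kcnj2, a potassium channel, 1.23 ± 0.33. Against DMSO the joint treatment raised Itga2 (4.25 ± 0.56, edgeR FDR = 0.00475), Tenm1 (4.84 ± 0.74, edgeR FDR = 0.0149), Zim1 (2.21 ± 0.37, edgeR FDR = 0.0278) and Serpina6 (2.31 ± 0.40, edgeR FDR = 0.0414).

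On the lower side the values were smaller. Tesmin had -1.09 ± 0.32, Ass1, an enzyme of arginine synthesis, -0.95 ± 0.30, Cfap77, a gene of cilia, -0.94 ± 0.31, and Slc2a6, a transporter of the glucose transporter family, -0.92 ± 0.22. Slc2a6 was at 5.96, 2.19 and 2.21 CPM with AM580 and 1.36, 3.30 and 0.899 CPM with the joint treatment, lower within both sets, and CD3254 alone left it at -0.02 ± 0.21 against DMSO. Rtn4r, Pla2g2d, Tcea3, Cyp4f14, Kcnip3 and Stac completed the 10, from -0.91 to -0.82.

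Penk, 1 of the 3 genes that DESeq2 called lower, was chosen for description after its values were seen. It encodes the opioid peptide precursor proenkephalin and was at 129.7, 69.3 and 79.4 CPM with AM580 and 53.7, 52.6 and 49.7 CPM with the joint treatment. The groups did not overlap, and the log2 change was -0.82 ± 0.19, with -0.78 ± 0.18 for CD3254 alone against DMSO. Chga, chromogranin A of secretory granules, was at 447, 332 and 358 CPM with AM580 and 295, 256 and 166 CPM with the joint treatment, a log2 change of -0.66 ± 0.21. It belongs to a list of endocrine markers, of which 8 were tested, 5 lay above 0 and the median was 0.19. At an unadjusted p under 0.05, Chga was the 1 member lower and Ppy, a hormone gene at low level here, the 1 member higher, at 1.29 ± 0.47.

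The same ligand was given without AM580, and that comparison, CD3254 against DMSO, shares no library with the one described here. Over all 16736 genes the 2 sets of log2 changes had a Pearson correlation of 0.06 and a Spearman correlation of 0.13 across genes. Over the 24 LXR targets they were 0.88 and 0.86, over the 30 PPAR targets 0.79 and 0.33, and over the 21 RAR targets 0.48 and 0.09. These are descriptions across genes, which are not independent, and the lists were chosen with results known. The LXR median was 0.41 without AM580 and 0.43 with it, and 16 of 24 members were above 0 in both. Gene by gene the values were less alike. The interaction had a median of -0.15 over the LXR targets, with 7 of 24 above 0. Over the PPAR targets its median was -0.14, with 9 of 30 above 0, beside 49.6% of all genes. No interaction was called. Without AM580, 22 of 24 were above 0.

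Of the genes called with CD3254 alone against DMSO, 4 of 16736 (0.0239%), Cyp26b1, Angptl4, Cpt1a and Abcg1, all had changes in the same direction on top of AM580. The interactions of Cpt1a, -0.28 ± 0.19, and Abcg1, -0.35 ± 0.21, were not called, and their intervals, from -0.68 to 0.11 and from -0.81 to 0.10, include 0. Lpl gave -0.19 ± 0.48 and Pdk4 -0.17 ± 0.72. Kcnj2, Slc2a6, Tesmin and Cfap77 had the larger differences between the settings, at 1.22 ± 0.46, -0.90 ± 0.30, -1.26 ± 0.44 and -1.27 ± 0.42, each with FDR = 0.961 by edgeR.

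**Figure D5:**
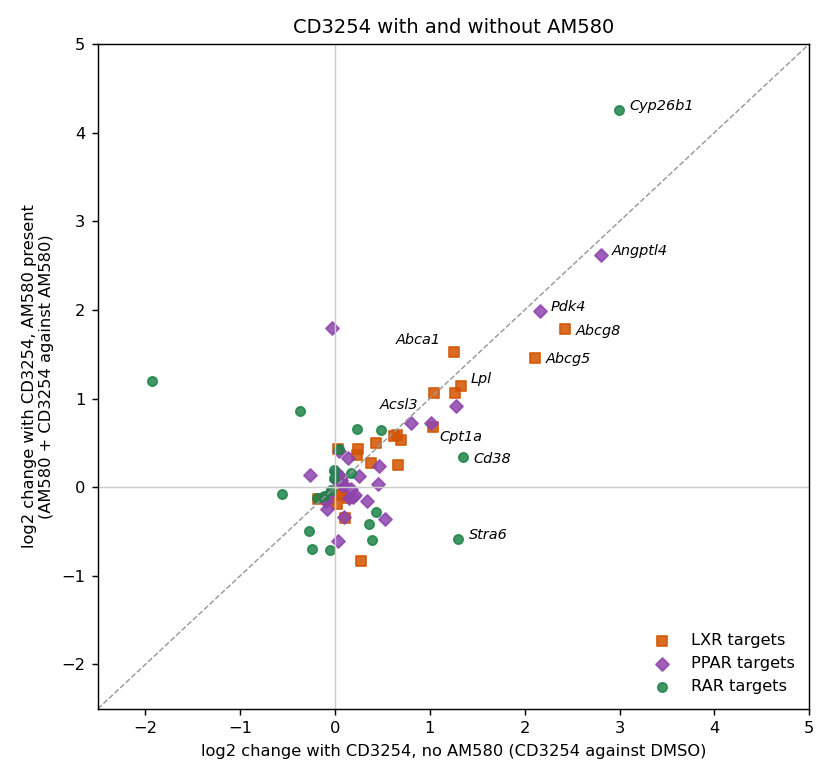
Log2 change with CD3254 in the absence of AM580 (x axis, CD3254 against DMSO) and in its presence (y axis, joint treatment against AM580) for the tested members of 3 target lists; the dashed line marks equal change. Only 7 of 24 LXR targets and 9 of 30 PPAR targets lie above the line, with median interactions of -0.15 and -0.14. Cyp26b1, at 2.99 and 4.25, lies above it.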

How the data were processed

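The authors deposited unnormalized read counts for Ensembl gene identifiers. The submitters' processing notes name mm10 with HISAT2 2.2.1, HTSeq, SAMtools 1.18 and FastQC. For strand setting, annotation release and library kit: not given in the sources used here. Reads without a gene were left out of library sizes and tests. Counts were tested with edgeR 4.0.16 in R 4.3.3: filterByExpr, TMM factors, and a robust quasi-likelihood fit to all 15 libraries, which share 1 estimate of the spread, with treatment and library set as terms (9 residual degrees of freedom). Libraries were put in a set by their side of 0 on principal component 1 of log2 CPM (prior count 2). The term was thus taken from the counts that are tested with it. Tests were two-sided, with Benjamini-Hochberg adjustment over 16736 genes and a threshold of 0.05. SEs come from the F value, with intervals at 95%. CPM are TMM-scaled, and differences between genes are not per length.

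Genes named are those past the threshold, 4 genes given with the comparison, the 10 largest changes each way at p under 0.01, at least 1 CPM and no overlap within library sets, up to 4 members of each list by p, and the receptors, and further members where a list needed them. Members, lists and tests were chosen with earlier results of these data known. Lists were described by counts and medians, with no test. No replicates within the AM580 group or within the joint group were duplicates by a chi-square test of their counts. The other groups were not checked in this way. The test was tried on simulated data with known changes. DESeq2 1.42.0, other scalings and filters, and fits without single libraries were alternatives. Symbols matched 42462 identifiers. Coordinates are from GENCODE M21 on GRCm38. Some members of the lists are counted but not reported here by name.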

Additional observations from a re-analysis of the deposited data

How the results depend on the processing

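The count of 2 genes called higher and 0 lower, by edgeR, stayed with the principal component as a covariate, with the 6 libraries alone and the library set term, with the 10-library set alone, with DESeq2 size factors, and without the shallow 9-cis retinoic acid library. It was also 2 with no filter on low counts, where Fmo5 took the place of Angptl4. It was 0 without the library set term, over all libraries or the 6 alone (229 and 124 genes at an unadjusted p under 0.05), 10 higher and 3 lower with DESeq2 and the term, and 1 with DESeq2 without it. Leaving out any 1 of the 12 libraries of 4 groups gave 1 to 2 genes, and leaving out both smaller-set libraries, an alternative added after seeing the data, gave 1. The replicate block, fitted with the term, also gave 2 genes, the same as without it. Deviations of same-numbered joint and AM580 libraries correlated at -0.457, -0.681 and 0.588, and at 0.187, 0.0144 and 0.204 with the library set removed. Joint replicate 1 then correlated best with its own number and the others did not, and the numbers were not taken to pair libraries. No interaction was called in any fit that held the DMSO and CD3254 libraries. The values that changed sign had not passed the test. The log2 change of Rxrb was 0.017 in the 10-library set and 0.0079 with both smaller-set libraries left out, and leaving out single libraries gave -0.30 to 0.061 for Rxrb, -0.22 to 0.11 for Rarg and -0.22 to 0.0044 for Rara. The interaction of Angptl4 was 0.075 (edgeR) and 0.079 (DESeq2) without the term and 0.17 in the 10-library set, where that of Abca1 was -0.042. That of Acsl3 was -0.035 (edgeR) and -0.033 (DESeq2) without the term, -0.24 in the 10-library set, -0.0084 without the filter, -0.00914 with the replicate block and -0.13 with both smaller-set libraries left out. Leaving out single libraries gave interactions of -0.52 to 0.32 for Angptl4, -0.079 to 0.50 for Abca1, -0.24 to 0.22 for Acsl3, -0.53 to 0.19 for Pdk4, -0.54 to 0.013 for Lpl and -0.34 to 0.082 for Fmo5. Of the 49 genes named by rule, 16 had a log2 change that moved by over 1.5 times without AM580 replicate 1, and 1 to 4 did without each other library of the 6. The cause was not tested. Depth limits low genes such as Pdk4, Abcg8 and, in DMSO, Cyp26b1.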
